A study of Mus musculus with 9 samples.

Results

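The Sca-1+ fraction of bone marrow (BM) endothelial cells (ECs) was described from 4 of the 9 RNA-seq libraries of the series, those whose labels name Sca-1+ endothelial cells. The cells were sorted as CD45-Ter119-CD31+Sca-1+ from the BM of wild type B6 mice, and the other 5 libraries came from the Sca-1- cells of the same gate in mice of the same strain and genotype. The labels name no treatment, and give neither age nor sex nor the number of mice behind a library. The study asked how the vessels of the marrow change in acute myeloid leukemia, and these libraries hold the normal ECs. The Sca-1+ libraries are called 7, 13, 15 and 19 after the numbers that end their labels, and the labels of libraries 15 and 16, the latter Sca-1-, share a further number. Library 13 alone of the Sca-1+ libraries has CD452 in its label, as do Sca-1- libraries 14 and 22 and, in a shorter form, 10. Libraries 15 and 19, and Sca-1- libraries 8 and 16, have wt, and library 7 has neither.

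ECs line every vessel, and their genes differ by vessel type. Arterial ECs use Notch signalling and gap junctions, continuous capillary ECs take up fatty acids through a dedicated set of carriers, and sinusoidal ECs of the marrow carry scavenger receptors and let cells pass between the tissue and the blood. Sca-1, a small protein anchored in the membrane by a lipid, is encoded by Ly6a and is used in the marrow to separate ECs of arterioles and capillaries from those of sinusoids. ECs also make miR-126a, a microRNA that lies within the gene Egfl7.

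The sequences below belong to genes the results return to. The first is miR-126a, the study's microRNA, with its seed (bases 2 to 8) in capitals, shown because its host gene was among the highest endothelial genes. It lies at chr2:26591402-26591423 on the plus strand, within Egfl7. The others are the 250 bases before the start sites of the heat shock genes Hspa1a (chr17:34972157-34972406) and Hspa1b (chr17:34959239-34959488), both on the minus strand, shown because these neighbours differed between the libraries in the same order and because their promoters are near copies, with 247 of 250 bases the same (98.8%). The capitals in these mark GAANNTTC, the core of a heat shock element, which reads the same on both strands. All are from RefSeq on GRCm38.p6.
mmu-miR-126a-3p: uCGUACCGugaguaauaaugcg
Hspa1a: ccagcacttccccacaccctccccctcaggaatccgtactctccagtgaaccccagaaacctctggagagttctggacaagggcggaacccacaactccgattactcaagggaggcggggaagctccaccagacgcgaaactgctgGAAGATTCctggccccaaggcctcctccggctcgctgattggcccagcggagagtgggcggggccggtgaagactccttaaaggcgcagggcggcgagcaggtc
Hspa1b: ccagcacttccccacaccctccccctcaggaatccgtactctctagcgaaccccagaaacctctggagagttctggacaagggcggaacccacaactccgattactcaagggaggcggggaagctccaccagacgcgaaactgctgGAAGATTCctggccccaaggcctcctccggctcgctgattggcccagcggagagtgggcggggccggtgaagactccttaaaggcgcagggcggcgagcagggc

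Counts per Sca-1+ library lay between 23058385 and 24657204. A count of 3, taken as the floor, was 0.121 to 0.135 counts-per-million (CPM), and floors and intervals cover counting error only, since the libraries carry no molecular identifiers. Levels of a gene across libraries are given as CPM, and levels of different genes are compared as transcripts-per-million (TPM), which divide by exon length. Values with ± are the mean and SD over the 4 libraries unless stated, and 4 values joined in a sentence are in the order of libraries 7, 13, 15 and 19. No pair of libraries was a copy, since between any pair the chi-square per degree of freedom was 36.8 to 114. Libraries 7 and 15 were the most alike (Spearman correlation over genes 0.967) and libraries 13 and 19 the least (0.902).

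Each of the 6 genes taken as markers of the fraction, of which the labels name only Sca-1, was measured at a high level in every library. Ly6a (ENSMUSG00000075602, chr15:74994877-74998031), the gene of the sort, was at 1037, 1458, 1336 and 1522 CPM. Emcn, a sialomucin of capillary, venous and sinusoidal ECs, was at 1150, 1045, 1127 and 721 CPM, lowest in library 19. By protein staining, the study took Sca-1high vessels without Endomucin, the product of Emcn, as arteries and arterioles, and Sca-1low vessels with it as sinusoids. The values here are RNA of sorted cells. Sox17, a transcription factor of arterial ECs, stood at 347, 301, 370 and 361 CPM. The Sox17 count may hold reads of Gm37587, which overlaps it. Nrp1, a co-receptor of VEGF and semaphorins, held 854, 812, 964 and 990 CPM. The VEGF receptor gene Flt1 held 569, 509, 554 and 801 CPM, and Cdh5, which encodes VE-cadherin, the adhesion protein of endothelial junctions, 297, 280, 350 and 321 CPM. Each of these 6 genes was among the highest 10% of expressed genes by TPM, and none differed by more than 1.60-fold between its highest and lowest library. Pecam1, which encodes CD31, was at 1600, 1358, 1592 and 2052 CPM. Ptprc, which encodes CD45, had 24 counts in library 7, 66 in library 19 and 0 in libraries 13 and 15.

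Tmsb4x (ENSMUSG00000049775, chrX:167207093-167209315), which encodes the actin-binding peptide thymosin beta 4, ranked highest at 9999, 10130.5, 10589 and 9322 CPM, and was also highest by TPM. Plvap (ENSMUSG00000034845, chr8:71497765-71511752), which builds the diaphragms of fenestrae and caveolae, came next at 9427, 8288, 7889 and 6849 CPM. Then followed Sparc, a matrix glycoprotein, at 6985 ± 2588 CPM, Fos at 6775 ± 1122 CPM and Junb at 6430 ± 1496 CPM, the last 2 being subunits of the AP-1 transcription factor. The libraries were close for Tmsb4x and far apart for Sparc, which was at 9471 CPM in library 7 and 3837 CPM in library 19. Among the next genes were B2m and H2-D1, both of MHC class I, the fatty acid carrier gene Fabp4, the selenium carrier gene Sepp1, the chaperone gene Hspa5, and Igfbp7, a secreted binding protein of vascular matrix.

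**Figure D1:**
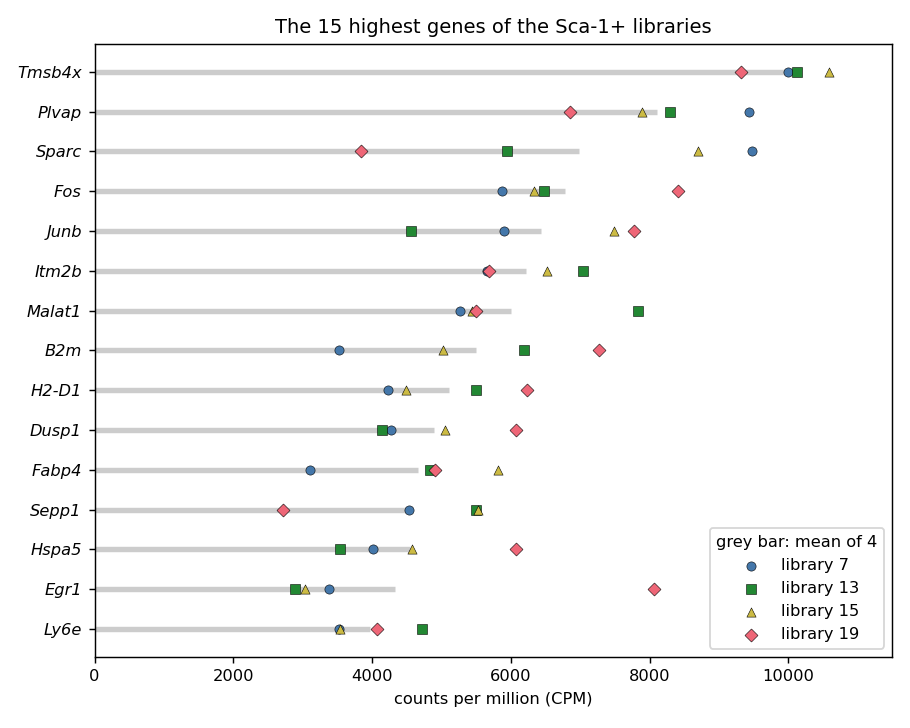
CPM of the 15 highest genes by mean CPM, with 1 point for each of the 4 Sca-1+ libraries and a grey bar for their mean. The points lie close together for Tmsb4x, while Egr1 reached 8057 CPM in library 19 against 2882 to 3373 CPM in the others.

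By TPM the order changed, since short genes moved up. B2m was second at 18296 ± 4920 TPM behind Tmsb4x at 21024 ± 1369 TPM, and Igfbp7 (8273 ± 739 TPM), Fos (8269 ± 1182 TPM), Junb (8027 ± 1765 TPM) and Ifitm3 (8012 ± 815 TPM), an interferon-induced membrane protein gene, lay within their spread of each other. Plvap was at 11788 ± 1912 TPM. Of the 20 highest genes by CPM, 13 were also among the 20 highest by TPM. Gm37376, listed at 14965 ± 2521 TPM, lies wholly within the noncoding RNA gene Malat1 on chromosome 19 and its level cannot be separated from that of Malat1. Gapdh, a glycolytic enzyme gene of every cell, was listed at 9.26, 6.75, 8.07 and 11.8 CPM, but it has many near-identical copies in the genome and its count is uncertain. Other genes named here that overlap a neighbour, so that their counts may hold its reads, are Junb (Prdx2), Igfbp7 (Polr2b), Dusp1 (Ergic1), Sepp1 (Ccdc152), Ackr1 (Cadm3), Stab1 (Nt5dc2), Gpr182 (Zbtb39), Nos3 (Atg9b) and Ephb4 (Zan).

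Few genes took a large share of the counts. The highest gene held 1.002% ± 0.0719, the 10 highest 6.83% ± 0.137, the 100 highest 23.8% ± 1.07 and the 1000 highest 56.5% ± 1.08. The 20 highest genes of each library held 10.1%, 10.8%, 10.8% and 11.1% of its counts, with 95% Wilson binomial intervals of at most ± 0.0128 percentage points. In the Sca-1- libraries the same share was 17.1% ± 3.31 (SD, n = 5), between 13.3% and 21.9%, and the fractions did not overlap (p = 0.016 by a two-sided exact permutation test, the smallest value that 4 against 5 libraries allow). By library, 14 genes were among the 20 highest of every Sca-1+ library and 26 among those of any. A mean of at least 1 CPM was reached by 14033 genes, at least 10 CPM by 9162, at least 100 CPM by 2109 and at least 1000 CPM by 109.

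Mitochondrially encoded genes took 0.293%, 0.317%, 0.429% and 0.244% of the counts, against 0.146% ± 0.0350 (SD, n = 5) in the Sca-1- libraries (exact permutation test, two-sided, p = 0.016). Ribosomal protein genes took 0.493% ± 0.0799 against 0.469% ± 0.261 (SD, n = 5), a difference within the spread (exact permutation test, p = 0.87), and 13850 ± 134 genes reached 1 CPM in a library against 13075 ± 841 (SD, n = 5; exact permutation test, p = 0.13). P-values here measure the spread between these libraries, which the labels do not say came from separate animals.

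Genes shared by all ECs had the highest median of the vessel lists. The 26 genes of a general endothelial list were all at 18.1 CPM or more, with a median at the percentile 97.3 by TPM among genes of at least 1 CPM, and 22 of them were in the highest 10%. Cldn5, the tight junction claudin of ECs, led at 2180.5 ± 618 TPM, followed by the adhesion molecule gene Esam at 1426 ± 68.0 TPM. Egfl7 (ENSMUSG00000026921, chr2:26580014-26593120), a secreted factor of ECs and the host of the microRNA shown above, was at 1558, 842, 1401 and 737 CPM. Libraries 7 and 15 were thus the high ones for Egfl7, although its exons also overlap those of Agpat2 and Gm20532 and the count may hold reads of these. The lowest members were the transcription factor genes Erg at 23.5 ± 1.74 CPM and Tal1 at 18.1 ± 2.05 CPM. Fractions were compared gene by gene with edgeR at an adjusted p under 0.05. A gene that reached the filter's minimum count in fewer than 4 libraries of a fraction was left out of the counts for each list. Most list members left out had entered the test through the other fraction alone, and a few, such as Ltf, through libraries of both. Of the 12124 genes that remained, 22.9% were higher in the Sca-1+ and 20.7% in the Sca-1- libraries (43.6% together), and of all 15937 tested 23.3% and 21.4% (44.8% together). Of the 26 general endothelial genes, 21 were higher and 2 lower in the Sca-1+ libraries. The 2 lower genes were Fli1 and Tal1, which blood cell precursors and megakaryocytes also use. The Sca-1- libraries held much megakaryocyte RNA, as given below. Its part in this comparison and in those of the other lists was not tested.

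**Figure D2:**
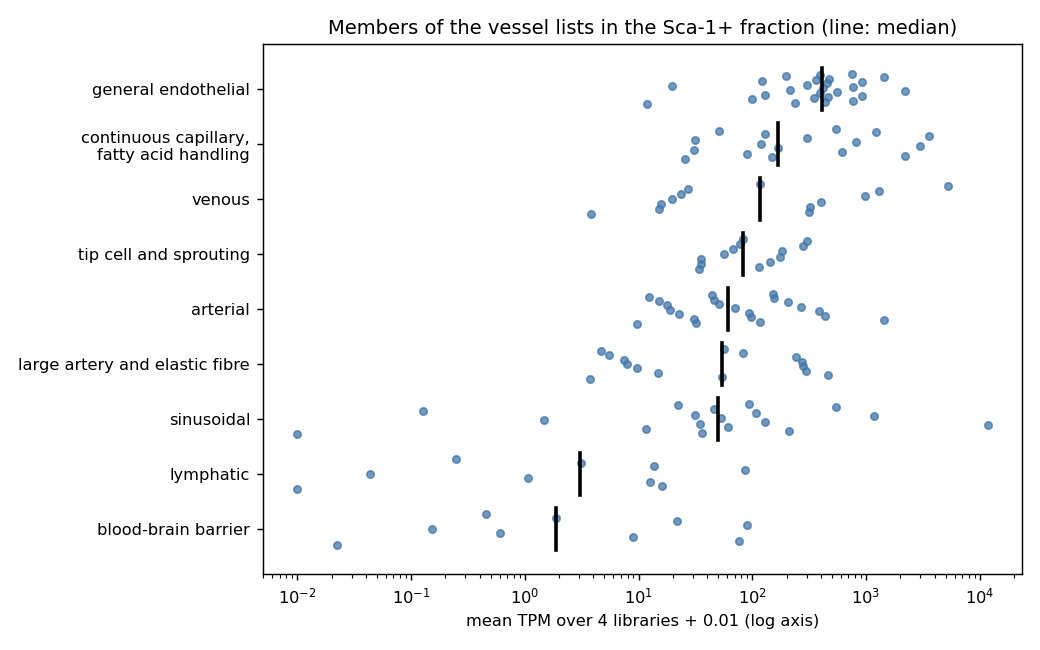
Mean TPM over the 4 Sca-1+ libraries, with 0.01 added and a log axis, of each gene in 9 lists of vessel genes, 1 point per gene and a black line at the list's median. General endothelial genes had the highest median (407 TPM) and blood-brain barrier genes the lowest (1.87 TPM), and the sinusoidal list had the widest range, from 0 for Gata4 to 11788 TPM for Plvap.

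Among the lists that mark 1 kind of vessel, continuous capillary and fatty acid genes stood highest by mean TPM, with a median percentile of 92.8 and all 17 genes above 10 CPM. They were the highest of these lists in libraries 13, 15 and 19, but in library 7 capillary genes were at 84.9, below venous (91.7) and tip cell genes (90.9). Fabp4 (ENSMUSG00000062515, chr3:10204088-10208576), which carries fatty acids inside the cell, was at 3107, 4834, 5811 and 4901 CPM. Cd36, the fatty acid translocase of capillary ECs, was at 1379, 2683, 2719 and 4391 CPM. Gpihbp1, which moves lipoprotein lipase to the vessel lumen, was more even, at 1085, 1149, 1248 and 855 CPM. Library 7 was lowest and library 19 highest for Cd36, while Gpihbp1 was lowest in library 19. Rgcc, a cell cycle regulator of capillary ECs, was the highest of the list by TPM (3575 ± 563), and the transcription factor genes Meox2 and Tcf15, which switch on Cd36 and Fabp4 in heart and muscle capillaries, were at 141 ± 94.3 and 184 ± 54.4 CPM. The water and glycerol channel genes Aqp1 and Aqp7 were at 744 ± 302 and 117 ± 53.0 CPM, and Pparg, the fat cell and capillary nuclear receptor, at 312 ± 68.6 CPM. Of the 17 genes, 4 were left out of the comparison with the Sca-1- libraries as above, Aqp7 among them. Of the other 13, 12 were higher and 1, Gyg, was lower, beside 22.9% and 20.7% over all genes compared.

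Arterial genes were present at a lower level, with a median percentile of 80.1, and 7 of 22 in the highest 10%. Tm4sf1, a tetraspanin-like surface protein of ECs, was highest at 1429 ± 169 TPM, and the connexin gene Gja4 followed at 433 ± 79.9 TPM. Dll4, the Notch ligand of arterial and tip cells, was at 202, 175, 213 and 244 CPM. Gja5, the connexin of larger arteries, was at 114, 38, 55.7 and 46.8 CPM, so library 7 held the most by more than 2-fold. The Notch receptor genes Notch4 and Notch1 were at 31.0 ± 13.7 and 12.3 ± 0.710 TPM, the ligands Jag2 and Jag1 at 22.5 ± 7.50 and 19 ± 2.49 TPM, and the Notch target Hey1 at 70.8 ± 18.3 TPM. Efnb2, the ephrin of arterial ECs, was at 138, 89.9, 114 and 147 CPM. Of the 22 genes, 5 were left out of the comparison, Sox17 and Gja5 among them. Of the other 17, 15 were higher than in the Sca-1- libraries and none lower, beside 22.9% and 20.7% over all genes compared. The remaining 2 by edgeR were Cxcr4 (adjusted p = 0.063) and Unc5b (adjusted p = 0.056).

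Genes of large arteries and elastic fibres were uneven. Fbln5, which assembles elastic fibres, reached 1232, 954, 995 and 1226 CPM, and Ltbp4, its partner in the matrix, 666, 402, 741 and 833 CPM. Eln, which encodes elastin itself, was only at 60.7, 24.8, 54.6 and 24.6 CPM. The crosslinking enzyme genes Lox and Loxl1 were at 12.9 and 10.9 CPM on average, and library 13 was the lowest for both, at 0.813 and 2.72 CPM. Of the 13 genes compared, 5 were higher and 3 lower than in the Sca-1- libraries, beside 22.9% and 20.7% over all genes compared, and the lower ones were Clu, Lox and Ltbp1.

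Sinusoidal genes were present in the Sca-1+ fraction too. Apart from Plvap and Emcn, which other permeable vessels share, Stab2 (ENSMUSG00000035459, chr10:86841198-87008025), the hyaluronan scavenger receptor of sinusoids, was at 259, 460, 436 and 160 CPM. Stab1, its relative, was at 220, 159, 193 and 82.1 CPM, and the orphan receptor gene Gpr182 at 127, 119, 192 and 73.7 CPM. Library 19 was the lowest of the 4 for each of these genes, and also for Mrc1, the mannose receptor gene (127, 142, 207 and 60.2 CPM), for Flt4 (61.4 CPM, against 95.8 to 130 CPM) and for Tfpi, the inhibitor of tissue factor (1887, 2747, 2914 and 1287 CPM). Not every member of the list did so. Il6st averaged 814 CPM over the 4 libraries and 770 CPM without library 19, and was thus above its mean there. Vcam1 and Lyve1 were not lowest in library 19 either. Members known from the sinusoids of liver and lymph node were at 0 or low in the Sca-1+ libraries. Of these libraries, only library 13 had counts of Clec4g, at 0.407 CPM. Gata4 had 0 counts in every Sca-1+ library, and Lyve1 was at 0.243, 4.55, 0.122 and 1.08 CPM. The list's median percentile was 76.6. Of the 14 genes compared, 12 were higher than in the Sca-1- libraries and 1, Bmp2, was lower, beside 22.9% and 20.7% over all genes compared. The part of cell content in this count was not tested either. Lyve1 and Clec4g were left out, having entered the test through the Sca-1- libraries, where both reached the minimum count in all 5. They were lower in the Sca-1+ libraries, with log2 fold changes of -6.25 and -8.02. Dnase1l3, also left out, was higher, with a log2 fold change of 6.55.

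Venous genes held a median percentile of 89.1. Lrg1 (ENSMUSG00000037095, chr17:56119678-56122001), a secreted glycoprotein of venules and of inflamed ECs, was at 1873, 3613, 2999 and 1768 CPM. Ackr1, the chemokine-binding receptor of venular ECs, was at 382, 1021, 719 and 447 CPM. Libraries 13 and 15 were the high ones for both. The transcription factor gene Nr2f2, which sets venous identity, was low and even at 47.8, 46.4, 42.6 and 43.1 CPM, and Ephb4, the receptor of ephrin B2 on veins, was at 186 ± 42.1 CPM. Vwf, the clotting factor carrier stored in ECs and megakaryocytes, was at 62.7, 72.6, 54.3 and 167 CPM and lower than in the Sca-1- libraries (log2 fold change -3.36, standard error 0.55, edgeR adjusted p = 0.00084). Of the 11 venous genes compared, 8 were higher and 2 lower, beside 22.9% and 20.7% over all genes compared. The 2 lower ones were Vwf and the amino acid transporter gene Slc38a5.

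Tip cell and basement membrane genes had a median percentile of 84.9. The collagen IV genes Col4a1 and Col4a2 were at 716 ± 314 and 402 ± 156 CPM, highest in libraries 7 and 15. Apln, the peptide ligand of tip cells, was at 69.1, 18.0, 44.6 and 13.5 CPM, and Esm1, a proteoglycan of sprouting ECs, at 79.8, 38.1, 74.9 and 33.7 CPM. Both were thus higher in libraries 7 and 15 than in 13 and 19. The 11 genes of this list that were compared were all higher than in the Sca-1- libraries, beside 22.9% over all genes compared. Apln and Kcne3 were left out.

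Lymphatic and blood-brain barrier genes were the lowest lists, with median percentiles of 18.6 and 11.2. Prox1, the master factor of lymphatic ECs, was at 7.24 to 11.2 CPM, Pdpn was at 0.0407 to 0.316 CPM, Reln had 0 counts and Ccl21a 1 count in all 4 libraries together. Above 10 CPM on average were Foxc2, a factor of lymphatic valves, at 15.2 ± 3.16 CPM, Sema3a, a guidance cue, at 60.3 ± 25.7 CPM, and Mmrn1, a multimerin that megakaryocytes also store, at 203, 203, 217 and 75.6 CPM. Slco1c1 and Mfsd2a, transporters of brain vessels, were at 0.0226 ± 0.0451 and 0.345 ± 0.400 CPM, while Slc2a1, the glucose transporter gene that many cells use, was at 92.8 ± 7.24 CPM.

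The vessel lists did not rank alike in the 4 libraries. The summed CPM of the capillary list was 8442, 12752, 13828 and 15685, lowest in library 7 and highest in library 19. The sinusoidal sum ran the other way at its end, with 14588, 14495, 14722 and 10846 CPM, so that library 19 was the low one. Tip cell genes summed to 3116, 1931, 2922 and 1547 CPM, venous genes to 5401, 7594, 7164 and 5942 CPM, and arterial genes to 6813, 5142, 6259 and 5858 CPM. General endothelial genes differed least, at 17584, 15109, 17097 and 16014 CPM. Cxcl12 is in the arterial list and, as given below, ran in the same library order as the arterial sum, which thus depends on it in part. For venous genes library 7 was the lowest by this sum but the highest by median percentile, at 91.7 against 85.0 to 89.8. By the median member, library 19 was 0.59 above the mean of the 4 on the log2 scale for capillary genes and 0.59 below it for sinusoidal genes (median deviation -0.59), and library 7 was 0.49 below for capillary genes (-0.49) and 0.46 above for tip cell genes. The median deviations were 0.12, -0.14, 0.01 and 0.11 for arterial genes and -0.35, -0.03, -0.03 and 0.10 for venous genes. Over all genes of at least 1 CPM the same medians lay at most 0.03 from 0. In bulk RNA, fewer cells of a type and less RNA per cell cannot be told apart, and with 1 group no test applies to these differences.

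**Figure D3:**
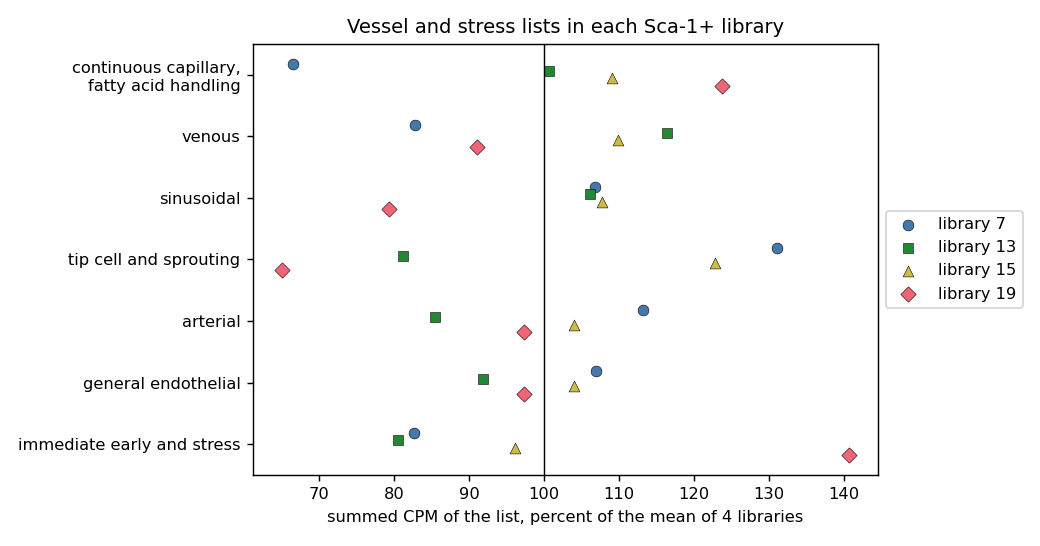
Summed CPM of 6 vessel lists and of the immediate early and stress list in each Sca-1+ library, as percent of the mean of the 4 libraries (vertical line at 100). Library 19 was the highest for capillary and stress genes and the lowest for sinusoidal and tip cell genes, and library 7 was the lowest for capillary and venous genes.

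Lists of endothelial function differed in level. Median percentiles were 98.0 for caveola and diaphragm genes, 90.5 for clotting control, 87.8 for junction, 87.4 for vessel tone, 80.4 for flow and quiescence factors, 72.1 for niche factors and 51.7 for the genes of TNF receptors and miR-126a. In the first of these lists was Cav1, the caveola coat gene, at 1790, 2646, 2301 and 4222 CPM. Of the clotting control genes, Thbd, the thrombin-binding receptor, was at 519 ± 27.1 CPM and Procr, the receptor of protein C, at 110 ± 4.79 CPM, with almost no spread, while Serpind1 had 0 counts. Nos3, the nitric oxide synthase of ECs, was at 166 ± 26.9 CPM, and the endothelin gene Edn1 at 71.8 ± 7.03 CPM. Among junction genes, Ocln and Cgn, which tight epithelia use, were at 0.0933 ± 0.133 and 0 CPM. The flow-responsive factor genes Klf2 and Klf4 were at 598, 648, 423 and 1184 CPM and at 147, 135, 163 and 245 CPM, with library 19 the high one for both.

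Factors through which vessels act on hematopoietic stem cells were measured in 20 genes, 18 of them at 1 CPM or more. Igfbp3, which binds insulin-like growth factors, was highest at 831 ± 148 TPM. Cxcl12 (ENSMUSG00000061353, chr6:117168535-117181367), the chemokine that retains stem cells, was at 1925, 371, 1051 and 981 CPM, a range of 5.18-fold. Kitl, the ligand of the stem cell receptor Kit, was at 147, 152, 194 and 367 CPM, and Csf3, the granulocyte growth factor, at 24.9, 84.5, 52.9 and 102 CPM. Library 13 was lowest for Cxcl12, library 7 for Csf3. Il7 and Angpt1, which stromal cells make, were at 4.68 ± 3.51 and 5.76 ± 4.15 CPM, and library 13 was the low one for both, at 0.163 and 0.854 CPM.

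The receptors through which the study's cytokine TNF acts were both measured, at unequal levels. Tnfrsf1a was at 284, 275, 310 and 333 CPM (333 ± 24.1 TPM) and Tnfrsf1b at 50.8, 58.4, 54.2 and 63.2 CPM (42.7 ± 3.01 TPM). Neither varied much between the libraries, with an SD of log2 CPM of 0.13 and 0.14. Tnf itself was at 1.82, 5.94, 6.28 and 24.7 CPM. Vcam1, an adhesion molecule for leukocytes and a known target of miR-126a, was at 357, 430, 441 and 371 CPM, and Spred1, an inhibitor of Ras signalling and another target, at 66.2, 56.9, 40.6 and 58.7 CPM. The microRNA itself was not measured by these libraries. Of the genes that process microRNAs, Drosha was highest at 14.6 ± 3.70 TPM and Ago2 lowest at 2.59 ± 0.807 TPM.

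Immediate early and stress genes were at the top of the fraction, with a median percentile of 99.3 and 18 of 20 genes in the highest 10%. Their summed CPM was 29833, 29040, 34669 and 50727. Of the 19 compared, 17 were higher than in the Sca-1- libraries and none lower, beside 22.9% and 20.7% over all genes compared. Egr1 was at 3373, 2882, 3026 and 8057 CPM, Atf3 at 528, 496, 786 and 1461 CPM, and Zfp36, which speeds the decay of cytokine messages, at 1349, 1491, 1505 and 3146 CPM. Library 19 was the highest for each. Hspa1a (chr17:34969190-34972156) was at 201, 402, 586 and 1654 CPM and Hspa1b (chr17:34956436-34959238) at 128, 240, 480 and 1114 CPM. Both ran in the order 7, 13, 15 and 19, with 8.22-fold and 8.71-fold between the ends, but reads of such near-identical genes may be assigned to either. The motif in their promoters, printed in capitals above, starts 104 bases before each start site (position -104). It was also found before Jun and Hspb1, hence in 4 of the 17 genes of the list with a promoter in the table (23.5%), against 6.69% of 32851 promoter windows of the same length. The list includes heat shock genes by choice, and the promoters of Hspa1a and Hspa1b are near copies, so this share is a description and no test. Fos, Junb and Dusp1 held no such match in these windows. Such genes are known to respond to the handling of cells, and the part of tissue dissociation in these levels was not tested.

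Genes that respond to interferon and to TNF through NF-kB were expressed without a cytokine having been given, as far as the labels tell. Of the 18 TNF response genes, all were above 10 CPM, with Nfkbia, the inhibitor of NF-kB, at 1954, 2277, 2325 and 3016 CPM and the adhesion molecule gene Icam1 at 1245, 1229, 1668 and 1800 CPM. Sele, the endothelial selectin, was at 246, 286, 343 and 402 CPM, and the neutrophil chemokine gene Cxcl1 at 209, 290, 291 and 395 CPM. Library 7 was the lowest and library 19 the highest for Nfkbia, Sele and Cxcl1. Il6, an inflammatory cytokine gene, was at 42.5, 40.7, 86.6 and 271 CPM, so library 19 stood apart by more than 3-fold. In this list 14 of 18 genes were higher than in the Sca-1- libraries and none lower, beside 22.9% and 20.7% over all genes compared. In the interferon list, of the 16 genes compared 13 were higher and 2, Ifit1 and Ifit2, lower, beside 22.9% and 20.7% over all genes compared. Iigp1, a GTPase induced by interferon gamma, was at 412, 711, 641 and 1766 CPM, Bst2, which tethers viruses to the cell surface, at 258, 165, 299 and 145 CPM, and Isg15 at 62, 51.2, 71.6 and 94.8 CPM. The members thus did not share a library order. Mx1, which is defective in many laboratory strains, was at 0 to 0.323 CPM.

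Genes of vessel tone, clotting and hypoxia were described by the same lists in all 4 libraries. Of 17 vessel tone genes, Ramp2, the partner of the adrenomedullin receptor, was steady at 537, 568, 505 and 519 CPM, while Ednrb, the endothelin receptor of ECs, was at 340, 201, 288 and 302 CPM and Ptgs1, a prostaglandin synthase, at 211, 188, 188 and 182 CPM. Adm, the ligand of Ramp2, was at 91.2, 98.4, 106 and 112 CPM. Of the 11 vessel tone genes compared, 8 were higher and 3 lower than in the Sca-1- libraries, and of the 11 clotting genes 9 were higher and 1, Vwf, lower, beside 22.9% and 20.7% over all genes compared. F8, the clotting factor that ECs secrete, was at 130, 148, 190 and 76 CPM, lowest in library 19 like most of the sinusoidal genes named above. Of the 14 hypoxia and glycolysis genes compared, 5 were higher and 5 lower, beside the same shares. Vegfa, the main vessel growth factor, was at 98.7, 58.7, 122 and 105 CPM, and Ldha, lactate dehydrogenase, at 571, 504, 641 and 644 CPM, while Car9, a carbonic anhydrase induced by hypoxia, was at 0.0813 to 0.632 CPM.

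The genes that varied most between the 4 libraries were counted by the SD of log2 CPM among the 9162 genes of at least 10 CPM. The median SD was 0.26, and 47.4% of the genes were under 0.25. An SD of at least 1 was found in 184 genes (2.01%) and of at least 2 in 42. Of the 184, 100 were highest in library 19, 68 in library 7, 11 in library 13 and 5 in library 15, while 115 were lowest in library 13. Without library 19, the count was 119, and 9 of the 25 genes that ranked first by SD were still among the first 25. Over all genes of at least 10 CPM, 141 were at least 2-fold above each other library in library 19, and 152 at least 2-fold below each in library 13. The biological coefficient of variation of the fraction was 0.281, and 0.222 without library 19, against 0.476 in the Sca-1- libraries. At the other end, Ifnar2, an interferon receptor subunit gene, was at 167, 169, 168 and 167 CPM, and Tspan12, a tetraspanin of vascular Norrin signalling, at 422, 421, 427 and 437 CPM.

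**Figure D4:**
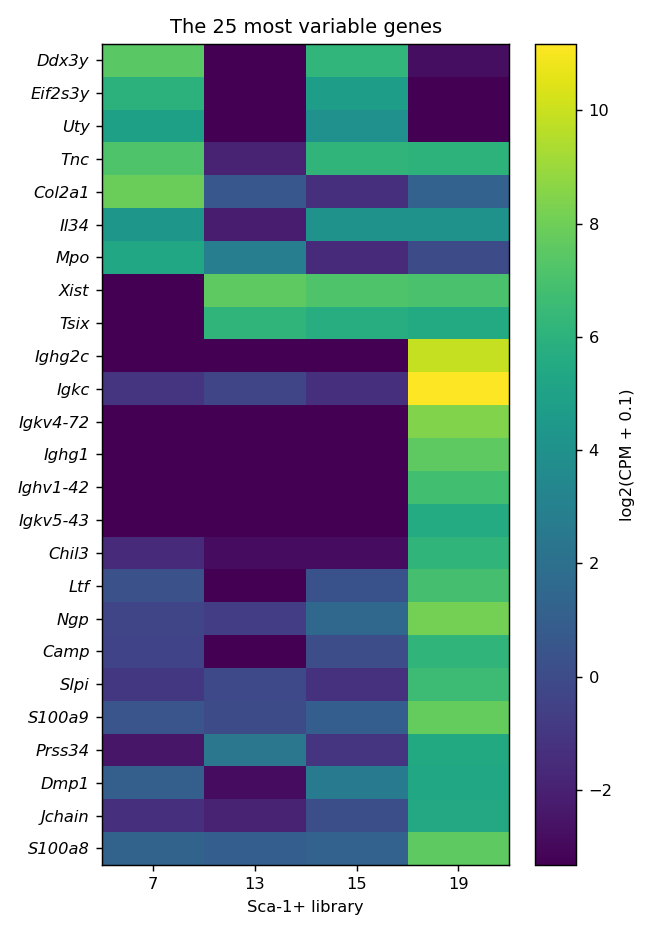
Log2(CPM + 0.1) of the 25 genes with the largest SD of log2 CPM, in rows, in the 4 Sca-1+ libraries, in columns, ordered by the library where each is highest. The immunoglobulin genes and the neutrophil genes from Chil3 to S100a8 were highest in library 19, Y chromosome genes were present in libraries 7 and 15, and Xist and Tsix were absent from library 7.

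Immunoglobulin genes stood at the head of this ranking and were found almost wholly in library 19. Igkc (chr6:70726435-70726966), the constant region of the kappa light chain, was at 0.364, 0.732, 0.285 and 2310 CPM. The heavy chain constant genes Ighg2c and Ighg1 were at 945 and 187 CPM in library 19 with 0 counts in the other 3. The variable region genes Igkv4-72, Ighv1-42 and Igkv5-43 were at 351, 110 and 48.2 CPM in library 19, again with 0 counts in the other 3. Jchain, which joins secreted antibodies, was at 0.283, 0.163, 1.02 and 42.4 CPM. The B cell surface gene Ms4a1 had 0 counts in all 4 libraries, and the summed CPM of the 13 B and plasma cell genes was 5.05, 3.62, 3.02 and 2382. On a scale common to the 9 libraries this sum was 2.58 to 2052 CPM in the Sca-1+ and 41.3 to 884 CPM in the Sca-1- libraries. The part of plasma cells in the other differences of library 19 was not tested.

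Neutrophil genes were the next group. Ngp, a granule protein gene, was at 0.728, 0.529, 2.77 and 279 CPM, S100a9 at 1.29, 0.895, 1.92 and 212 CPM, S100a8 at 2.30, 1.91, 2.24 and 194 CPM, and Ltf, which encodes lactoferrin, at 1.13, 0, 1.18 and 120 CPM. Library 19 alone was high for these genes of mature granules. The granule genes of earlier precursors went another way, with Mpo at 41.6, 7.2, 0.245 and 0.903 CPM and Elane at 19.1, 2.11, 0.408 and 0.948 CPM, both highest in library 7. The list of 14 summed to 151, 15.2, 13.6 and 955 CPM, and to 198 to 825 CPM in the Sca-1- libraries on the common scale, where the Sca-1+ range was 11.7 to 823 CPM. Lyz2 of monocytes and neutrophils (6.51, 10.9, 3.26 and 166 CPM), and Prss34 and Mcpt8 of basophils (0.0809, 5.33, 0.367 and 43.8 CPM, and 0.0809, 2.56, 0.285 and 16.5 CPM), were also highest in library 19. Hemoglobin genes were found at a low level in all 4 libraries, with Hbb-bs at 17, 16.2, 20.4 and 101 CPM.

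Other blood lineages were given by lists of 11 to 15 genes. The 15 megakaryocyte genes summed to 74.7, 113, 73.9 and 52.7 CPM, with the platelet chemokine gene Pf4 at 15.3, 23.1, 23.4 and 5.82 CPM. On the common scale this sum was 26327 to 113578 CPM in the Sca-1- libraries, far above each Sca-1+ library. General endothelial genes summed to 1841 to 5587 CPM in the Sca-1- and 12734 to 14970 CPM in the Sca-1+ libraries on that scale. All 10 megakaryocyte genes compared were lower in the Sca-1+ libraries, beside 20.7% over all genes compared. The 11 T and NK cell genes summed to 17.8, 20.2, 24.5 and 14.2 CPM, of which the kinase gene Lck held 13.6 to 23.7 CPM, while Cd3e, Cd3d, Cd3g, Cd8a, Gzma and Ncr1 had 0 counts. Of the 14 general leukocyte genes, Fcer1g, a signalling chain of Fc receptors, held 249, 224, 213 and 84 CPM and Lcp1, an actin bundler, 218, 134, 197 and 113 CPM, and both were lowest in library 19, unlike Coro1a and Rac2, which were highest there at 17.7 and 19.3 CPM. Macrophage genes other than Lyz2 were at most 13 CPM in any library, Cd68 being the highest. Skeletal muscle genes summed to 9.26, 14, 15.4 and 19.95 CPM and nerve genes to 13, 4.03, 7.95 and 11.7 CPM, with the Schwann cell factor gene Sox10 at 0 counts.

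**Figure D5:**
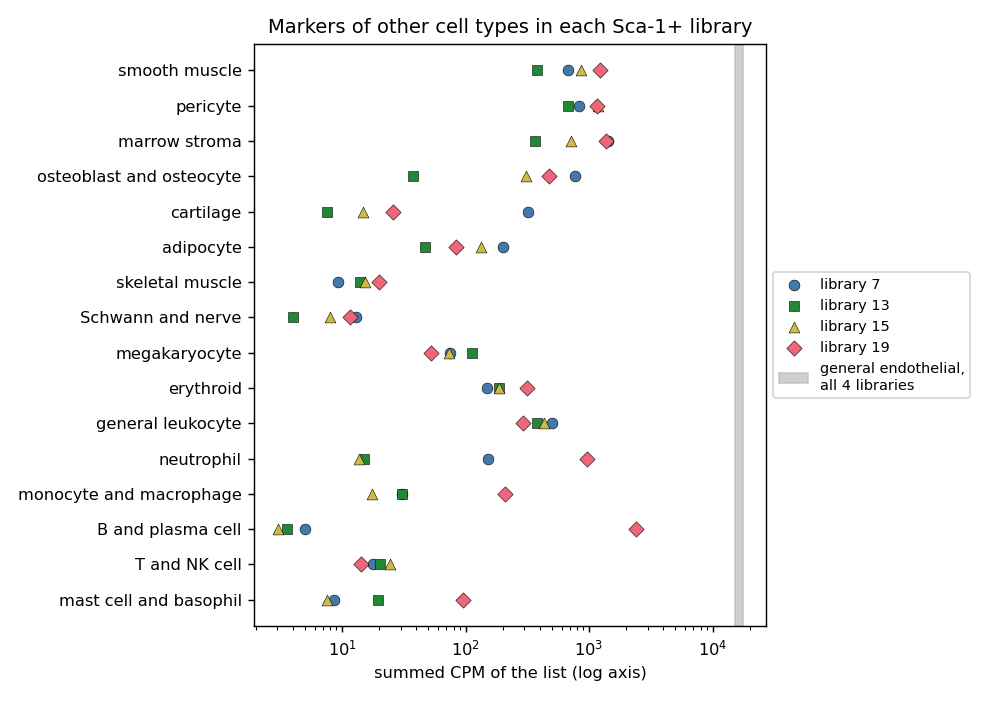
Summed CPM on a log axis of 16 lists of genes that mark other cell types, in each of the 4 Sca-1+ libraries, with a grey band for the range of the general endothelial list (15109 to 17584 CPM). Plasma cell, neutrophil, macrophage and basophil genes were highest in library 19, cartilage genes in library 7, and bone and stroma genes lowest in library 13.

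The lists of mural, stromal and bone genes varied between the libraries, and the sum of each was lowest in library 13. Rgs5, which marks pericytes, was at 243, 44.7, 334 and 628 CPM, and the smooth muscle genes Acta2 and Myh11 were at 230, 105, 347 and 517 CPM and at 50.6, 11.3, 77.8 and 106 CPM. Libraries thus ran in the order 13, 7, 15 and 19 for these mural genes. Kcnj8, a channel gene in the pericyte list, was unlike them at 328, 431, 474 and 163 CPM. In the stromal list, Col1a1 was at 214, 32.7, 75.3 and 454 CPM and Adipoq, which encodes adiponectin, at 185, 11.3, 100 and 62.6 CPM. Dcn of the same list was lowest in library 15 instead, its mean rising from 133 to 158 CPM without that library. Ibsp, a bone matrix protein gene, was at 742, 35.7, 296 and 406 CPM, although the late osteoblast gene Bglap was only at 3.48, 0.813, 2.81 and 4.56 CPM. Spp1, which encodes osteopontin, and Mmp13, a collagenase, were at 1071, 11.6, 580 and 659 CPM and at 3.78 CPM in library 13 against up to 282 CPM in library 7. Apart from Kcnj8 and Dcn, library 13 was the low one for each of these genes, and it was also the low one for Cxcl12 above. As the only Sca-1+ library with CD452 in its label, it cannot be told apart from that label. Tnc, which encodes the matrix protein tenascin C, was at 145, 0.163, 71.6 and 65.4 CPM. The 13 stromal genes summed to 1411, 363, 715 and 1361 CPM, and on the common scale to 306 to 1201 CPM against 3034 to 41689 CPM in the Sca-1- libraries. Of the 11 stromal genes compared, 3 were higher and 2 lower in the Sca-1+ libraries, beside 22.9% and 20.7% over all genes compared. The pericyte sum ran the other way, at 566 to 1019 CPM against 4.06 to 84.6 CPM in the Sca-1- libraries. For smooth muscle genes the ranges overlapped, at 319 to 1055 CPM against 706 to 4266 CPM. Col2a1, the collagen of cartilage, was at 239 CPM in library 7 and at 0.285 to 2.30 CPM in the others. The part of such cells in the levels of Cxcl12 and of the matrix genes was not tested.

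Genes of the sex chromosomes divided the libraries in a way the labels do not give. Ddx3y and Eif2s3y of the Y chromosome were at 178 and 62.8 CPM in library 7 and at 73.6 and 26.7 CPM in library 15, with 0 or 1 count in libraries 13 and 19. Xist, the noncoding RNA of the inactive X chromosome, had 0 counts in library 7 and was at 190, 143 and 129 CPM in libraries 13, 15 and 19. Library 15 held both, and so did library 16, the Sca-1- library with the same further number, with 737 counts of Ddx3y and 2045 of Xist. Tsix overlaps Xist on the opposite strand and its reads cannot be told apart from those of Xist.

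Antigen presentation and proliferation genes closed the account. Cd74, which escorts MHC class II, was at 39.9, 142, 19 and 547 CPM, and the class II gene H2-Aa at 13.4, 34.2, 9.54 and 101 CPM, both highest in library 19 and lowest in library 15. Both genes belong to B cells and macrophages as well as to some ECs. Of 18 proliferation genes, Mki67 was at 8.37, 5.90, 2.93 and 5.19 CPM and Top2a at 11.5, 5.04, 14.6 and 6 CPM. By edgeR at an adjusted p under 0.05, 17 were lower than in the Sca-1- libraries, beside 20.7% over all genes compared. The exception was the DNA clamp gene Pcna (106 ± 10.6 CPM, edgeR adjusted p = 0.082).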

How the data were processed

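The authors deposited raw read counts for 46078 Ensembl mouse genes in 1 table, whole numbers without normalization. RNA was extracted with a miRNeasy micro kit and 2 ng of total RNA went into a SMART-Seq v4 library, which primes on poly(A) and marks no strand. The submitters' processing notes name STAR, featureCounts and mm10; annotation and counting options are not given in the sources used here.

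From the counts, CPM were computed with edgeR 4.0.16 (R 4.3.3) and TMM over the 4 Sca-1+ libraries, log2 CPM with a prior count of 2, and TPM with union exon lengths of GENCODE M21 on GRCm38, where 849 genes have no length. Overlaps are those of its exons. Sums on the scale common to the 9 libraries used TMM over all 9. Sca-1- libraries held 21581653 to 25959818 counts. Fractions were compared in all 9 libraries by edgeR's quasi-likelihood F-test (filterByExpr, minimum count 10, minimum total 15, Benjamini-Hochberg over all genes tested, threshold 0.05), with list counts restricted, after the values were seen, to genes at the minimum count in 4 libraries of each fraction, and library measures by exact permutation over 126 splits. Alternatives were DESeq2 1.42.0, other scalings, filters and prior counts, and leaving out each library. In data simulated for the comparison of the fractions, 195 of 197 genes changed 4-fold were found among 15751, with 4 false calls. These data had 1 dispersion for both fractions, while the biological coefficients of variation were 0.281 in the Sca-1+ and 0.476 in the Sca-1- libraries. For the spread, 200 of 200 genes raised 16-fold in 1 library were found among 9162, with 2 false calls. A 16-fold rise lies far above the cut of an SD of 1, so this recovery does not speak to smaller changes.

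The 38 gene lists (486 symbols, all matched, 5 through the GENCODE symbol) come from general knowledge, and the members and lists were chosen with earlier results of these data known. Genes named by rule were the markers and genes of the sort, the 20 highest by CPM and 10 by TPM, by TPM the 5 highest of each vessel list (with members at the floor) and 3 of each other list, the 25 most variable with 5 more per library, the 10 steadiest, and 5 genes of the study. Other genes named, among them further list members, H2-Aa, Gapdh and Elane, were chosen after their values were seen. Some genes are not reported here. Plots used matplotlib 3.10.9 in Python 3.11.15.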

Additional observations from a re-analysis of the deposited data

Results flagged for a closer look

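Among 221 gene levels, list sums and library measures, 40 had a library far from the rest of its group, where the gap to the nearest other library divided by the whole range was above 0.829 for 4 libraries. Chance gives about 1 in 20 for values not chosen for their spread, but the most variable genes were named for it, so the count is a description. Of the 40, 29 pointed to library 19, 5 to library 7, 4 to library 13 and 2 to library 15.

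Library 19 stood far above the others for immunoglobulin genes, with a ratio of 1 for Igkc, Ighg2c, Ighg1, Igkv4-72, Ighv1-42 and Igkv5-43, of 0.98 for Jchain and of 0.904 for Ighm. For neutrophil genes the ratio was 0.998 for S100a8, 0.995 for S100a9 and Slpi, 0.997 for Chil3, 0.992 for Ngp, 0.99 for Ltf and 0.986 for Camp. For other blood genes it was 0.953 for Lyz2, 0.88 for Prss34, 0.849 for Mcpt8, 0.951 for Hbb-bs and 0.997 for Hba-a1. The list sums showed the same library, with 0.999 for B and plasma cell genes, 0.854 for neutrophil, 0.932 for monocyte and macrophage and 0.865 for mast cell and basophil genes. Library 19 was also high for Egr1 (0.905), for the osteocyte gene Dmp1 (0.836) and, at 2 counts, for Slco1c1 (1). It was far below the others for Mmrn1 (0.899) and for the sum of the sinusoidal list (0.942).

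Library 7 was far above the others for Col2a1 (0.992), Comp (0.83) and the cartilage list (0.942), and for Mpo (0.832), and far below them for Rgcc (0.901). Library 13 was the high one for Malat1 (0.912), for Gm37376 within it (0.894) and, at 1 count, for Ccl21a (1), and the low one for Mbp (0.854). Library 15 was the low one for the macrophage gene C1qb (0.888) and for Rab7 (0.889), a gene of little spread.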

How the results depend on the processing

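The shares of counts in the 20 highest and in the mitochondrial genes, and the count of genes called between the fractions (7137, and 5957 to 8240 under the alternatives), kept direction and side of the threshold. The ribosomal protein share, whose difference did not pass, turned direction without library 15 (0.466%) and without Sca-1- library 8 or 10 (0.493%), with a range of 0.466% to 0.529% when 1 library was left out. Genes at a level of 10 CPM numbered 9059.5 per Sca-1+ library (exact permutation p = 0.032), past the threshold that 1 CPM did not reach. Median percentiles by CPM in place of TPM were 98.4 for general endothelial, 81.9 for arterial, 66.0 for large artery, 87.1 for sinusoidal, 93.1 for venous, 25.9 for lymphatic and 25.01 for blood-brain barrier genes. Sinusoidal genes were thus above arterial genes by CPM and below them by TPM. Ranked among genes of at least 0.1 CPM they were 98.0, 84.0, 82.6, 37.5 and 30.1 for general endothelial, large artery, sinusoidal, lymphatic and blood-brain barrier, and 85.2 for arterial genes. Ranked among genes of at least 10 CPM they were 95.9 for general endothelial, 70.0 for arterial, 67.7 for large artery, 64.9 for sinusoidal, 83.3 for venous, 77.2 for tip cell, 1.18 for lymphatic and 0.142 for blood-brain barrier genes; fewer or more genes in the ranking move a percentile by construction. The large artery value was 72.5 to 79.3 with 1 library left out. Genes with an SD of at least 1 numbered 1102 at a mean of at least 1 CPM, 73 at 30 CPM, 119 to 270 with 1 library left out, and 173 without immunoglobulin, Y chromosome, Xist and Tsix genes, an alternative chosen after seeing the data. TMM over all 9 libraries moved 39 of 175 gene levels by more than 1 SD. No paired analysis was possible because the fractions share no replicate number, and only libraries 15 and 16 share another number, apart from the CD452 in the labels of library 13 and several Sca-1- libraries. Depth limits genes near 3 counts.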
